A study of Lotus japonicus with 24 samples.

Results

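The genes described here are 82 of the 30243 genes in a table of FPKM (fragments counted per kilobase of gene length and scaled by library size) from *Lotus japonicus*. They are the genes whose deposited description contains "pathogenesis-related", "thaumatin" or "chitinase". From these, 3 genes with an AP2 DNA-binding domain were left out, since AP2 factors bind the promoters of defence genes and are not themselves defence proteins, and 0 genes were left out for a LysM receptor domain. By the Pfam domain in the description, 25 were thaumatin-like genes (also called PR-5), 21 PR-10 genes, 8 chitinases of glycosyl hydrolase family 18 (GH18), 7 chitinases of family 19 (GH19), 6 PR-1 genes and 1 PR-4 gene, and 14 had none of these domains. Gene names used below are those of the best protein match given in the description, often from another species.

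Pathogenesis-related (PR) proteins are small, mostly stable proteins that plants accumulate after infection, wounding or treatment with defence hormones. Many are also made in healthy organs during development or under osmotic and nutrient stress. PR-1, PR-4, thaumatin-like proteins and chitinases are mostly secreted or vacuolar. Chitinases cut chitin of fungal walls and, in legumes, some cut the lipochitooligosaccharide Nod factors of rhizobia. Thaumatin-like proteins, including osmotins, act against fungi. PR-10 proteins stay in the cytosol and hold small hydrophobic molecules, among them hormones and flavonoids, in a cavity of the Bet v 1 fold. In Arabidopsis, PR-1 and the thaumatin-like PR-5 are widely used readouts of salicylic acid signalling.

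The 8 groups were shoots and roots of *Ljasn1-2* and of WT (ecotype Gifu), under S (symbiotic) or NS (non-symbiotic) conditions, with 3 libraries per group. *Ljasn1-2* (genotype Ljasn1_2 in the labels) is a single homozygous line with a LORE1 retrotransposon in an exon of *LjASN1*, an asparagine synthetase gene (LotjaGi1g1v0118200), and the comparisons of genotype rest on that 1 line. S plants were inoculated with *Mesorhizobium loti* and grown with 3 mM KCl and no combined nitrogen, and their roots were harvested with the nodules. NS plants were fed 5 mM NH4NO3 and 3 mM KNO3. A library stands for 10 pooled plants, so p-values measure the spread between such pools. The methods give a harvest at 26 days for NS plants and at 37 days for S plants, after an 8-h light period. The design text deposited with the series instead gives 40 days and 4 h for all of them. Nutrition, nodules and, by the methods, age therefore cannot be told apart in any comparison of S with NS.

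Depth on genes was 37.5 to 66.8 M reads, and the correlation of log2(FPKM + 1) between replicates was 0.955 to 0.995. *LjASN1* was lower in *Ljasn1-2* in each tissue and condition, for example 78.9 ± 35.2 FPKM in *Ljasn1-2* NS roots against 637 ± 67.3 FPKM in WT NS roots (SD, n = 3 each). Markers went with the labels: the 4 leghemoglobin genes summed to 6592 FPKM or more in each S root library and to at most 1.03 FPKM elsewhere, and the 5 casparian strip genes of the root endodermis summed to at most 0.188 FPKM in shoots. In the deposited table the values of 1 FPKM or more had lost their decimal point, and it was restored from whole reads. The choice of the power of 10 stayed uncertain in some root libraries of 3 of the 82 genes (LotjaGi6g1v0345200, LotjaGi1g1v0685100 and LotjaGi2g1v0317700). The other possible values are given where these genes are described. Counts of members and class sums that include roots use the placement kept, and could change through these genes.

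Of the 82 genes, 64 reached 1 FPKM in at least 1 library and 25 reached 100 FPKM. The other 18, namely 7 thaumatin-like, 2 PR-1, 2 PR-10, 2 GH18 and 5 without a class domain, stayed at or under 0.708 FPKM in all 24 libraries and are not described further. Together the 82 genes held 1.27% of all FPKM in *Ljasn1-2* S shoots and 1.29% in WT S shoots, 0.917% in *Ljasn1-2* NS shoots and 1.2% in WT NS shoots. In roots they held 0.655% in *Ljasn1-2* and 0.648% in WT under S conditions, and 1.65% in *Ljasn1-2* and 1.49% in WT under NS conditions (means of 3 libraries). The lowest shares were thus those of nodulated roots and the highest those of nitrogen-fed roots, in both genotypes. PR-10 genes were the most abundant class in each group, at 0.341% to 1.15% of all FPKM.

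**Figure D1:**
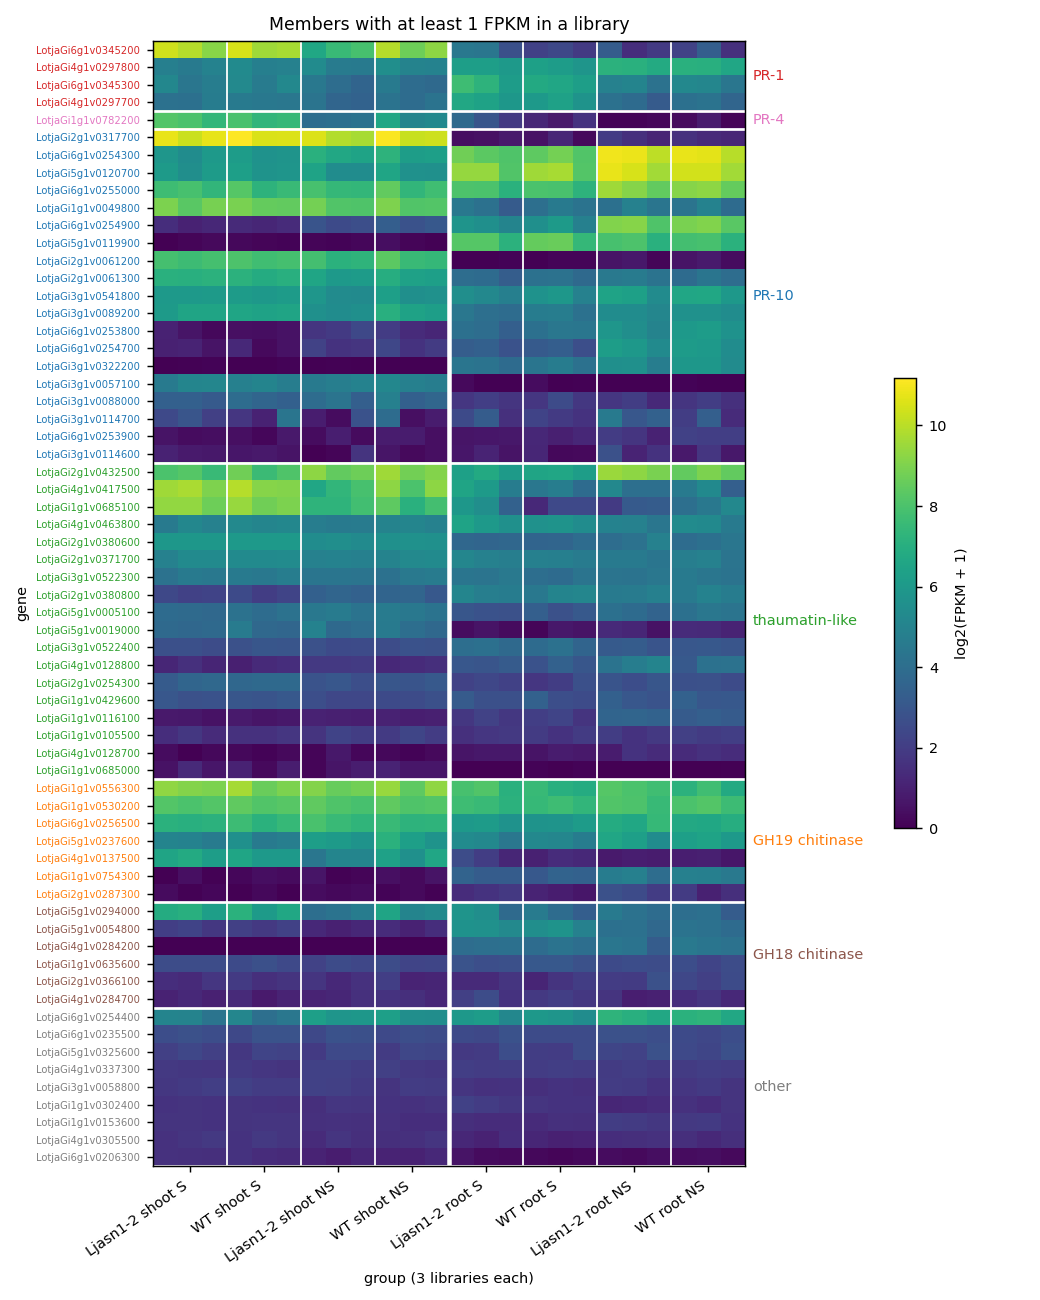
Level of the 64 genes that reached 1 FPKM in a library, as log2(FPKM + 1) (colour), in each of the 24 libraries (columns, 3 per group), with genes in rows by class. Shoot libraries stand left and root libraries right of the thick line. LotjaGi2g1v0317700 is bright in shoots and dark in roots, and LotjaGi5g1v0119900 the reverse.

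**Figure D2:**
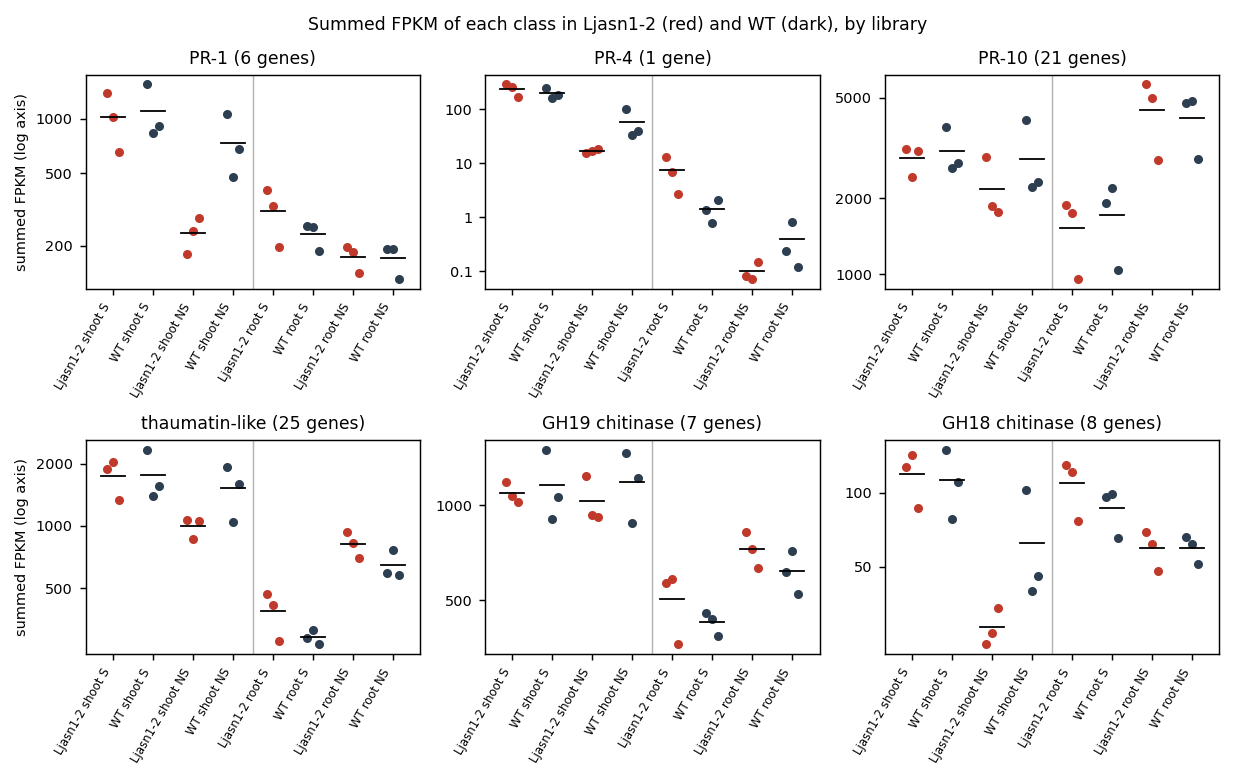
Summed FPKM of the genes of each class (log axis) in each library, *Ljasn1-2* in red and WT in dark, with a line at the mean of 3 libraries. The PR-10 sum was highest in NS roots, and the PR-1, PR-4 and GH18 sums of *Ljasn1-2* NS shoots lay below those of the 3 WT NS shoot libraries.

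Most of the expressed genes had a strong preference for shoots or for roots, in either direction. Under S conditions in WT, 26 of 59 tested genes were higher in shoots (27.6% of all tested genes were) and 21 were higher in roots (27.5% of all). Under NS conditions in WT, 19 of 62 were higher in shoots (26.3% of all) and 22 in roots (26.2% of all). In *Ljasn1-2* the counts were 24 higher in shoots (27.4% of all) and 21 higher in roots (27.1% of all) of 60 under S conditions, and 17 (26.3% of all) and 23 (26.4% of all) of 61 under NS conditions. These are calls of limma at an adjusted p under 0.05, on the log2(FPKM + 1) scale. In each of the 4 comparisons and in both directions the share of members called was above that of all tested genes, and this difference in shares was not tested. In these comparisons 10 to 12 members passed the filter on low values (1 FPKM in 3 libraries) through 1 tissue alone, and each of them was called. In whole organs, fewer cells of a type and less RNA per cell cannot be told apart.

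Members of 1 family went opposite ways between tissues, most clearly among the PR-10 genes. LotjaGi2g1v0317700 (chromosome 2, 79266546 to 79268031 of the LjG1.1 assembly), a match to the major-latex-like protein MLP-423 of Arabidopsis, was the most abundant of all 82 genes in shoots. It had 1761, 1247 and 1732 FPKM in *Ljasn1-2* S shoots and 2299, 1504 and 1533 FPKM in WT S shoots, and 1530.0, 930.2 and 834 FPKM in *Ljasn1-2* NS shoots against 2221, 1194 and 1270.3 FPKM in WT NS shoots. In S roots it had 0.328, 0.409 and 0.750 FPKM in *Ljasn1-2* and 0.466, 1.27 and 0.199 FPKM in WT. Each shoot library thus lay far above each S root library, and the log2 fold change of shoot over root was 10.10 ± 0.26 in WT under S conditions (SE, limma adjusted p = 5.0e-09). The gene met the filter on low values there only with its shoot libraries, since 1.27 FPKM was its only WT S root value above 1 FPKM. Under NS conditions the fold change was 9.17 ± 0.25, or 6.46 with the other placement of the decimal point. In that placement the WT NS roots have 20.4, 15.5 and 13.0 FPKM in place of 2.04, 1.55 and 1.30. LotjaGi2g1v0061200, a match to MLP-43 of Arabidopsis, had the same preference, with 261, 214 and 231 FPKM in WT S shoots and at most 0.773 FPKM in any root library.

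Another match to MLP-423, LotjaGi5g1v0119900, went the other way. It had 296, 299 and 144 FPKM in *Ljasn1-2* S roots, 366, 391 and 174 FPKM in WT S roots, 243, 268 and 135 FPKM in *Ljasn1-2* NS roots and 223, 241 and 137 FPKM in WT NS roots, and at most 0.337 FPKM in shoots. Shoot over root was -8.02 ± 0.28 in WT S plants and -7.40 ± 0.22 in WT NS plants on the log2 scale. The gene passed the filter on low values through the roots alone, so no test of it is given. LotjaGi3g1v0322200, a match to the cytokinin-binding CSBP of mung bean, had 59.2, 59.1 and 40.9 FPKM in WT NS roots and 0 reads in the 3 WT NS shoot libraries. At a floor of 3 reads per library it was at least 1003-fold higher in WT NS roots than in WT NS shoots.

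The other classes had their own root and shoot genes. The shoot side held LotjaGi6g1v0345200 (PR-1), LotjaGi1g1v0782200 (PR-4), LotjaGi4g1v0417500 and LotjaGi1g1v0685100 (both thaumatin-like) and LotjaGi4g1v0137500 (a GH19 chitinase with a chitin-binding domain). Their log2 fold changes of shoot over root in WT S plants were 7.76, 6.37, 5.03, 6.97 and 4.96. Each of these 5 genes comes back in the comparison of the genotypes. The root side held the 3 other expressed PR-1 genes under S conditions. LotjaGi6g1v0345300, a match to the basic PR-1 of tobacco, had 36.9, 23.8 and 35.6 FPKM in WT S shoots and 108, 95.3 and 75.0 FPKM in WT S roots. The GH18 gene LotjaGi5g1v0054800, a match to the Lotus chitinase CHIT5 that cuts Nod factors, had 3.35, 2.66 and 3.51 FPKM in WT S shoots and 45.5, 52.7 and 29.2 FPKM in WT S roots. LotjaGi4g1v0284200, a match to CHIT5b of Medicago, chosen after its values were seen, had 0 reads in all 12 shoot libraries and was at least 340-fold higher in WT S roots and at least 459-fold higher in WT NS roots at a floor of 3 reads per library. The abundant GH19 genes differed less between tissues. LotjaGi1g1v0530200, a match to the chitinase-like protein 1 of Arabidopsis, which acts in cellulose deposition, had 349, 281 and 303 FPKM in WT S shoots and 177, 205 and 163 FPKM in WT S roots.

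**Figure D3:**
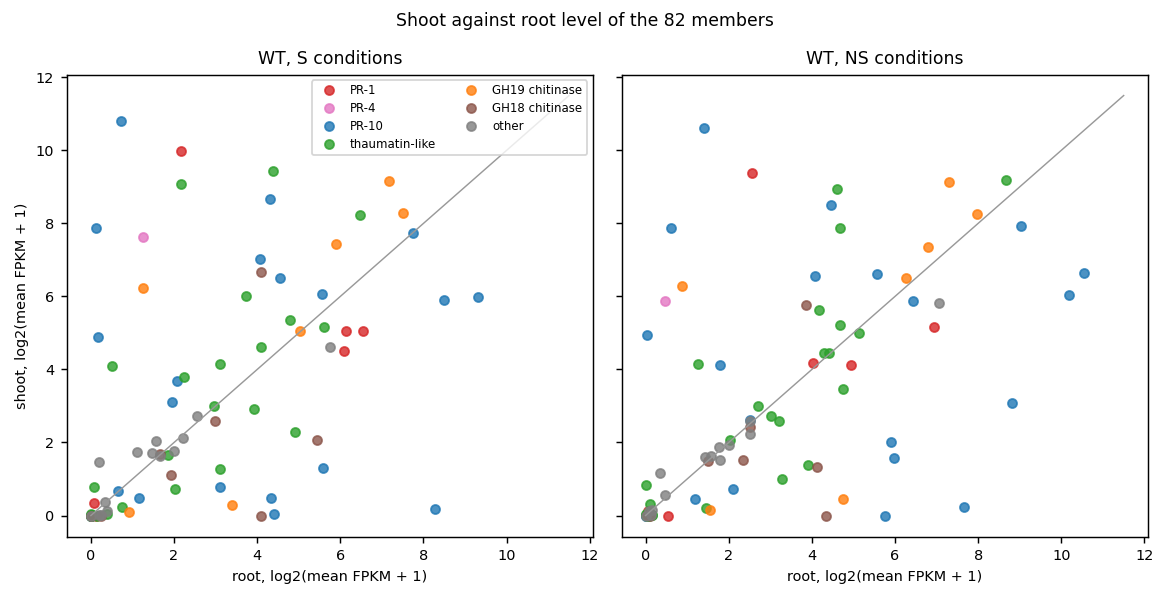
Mean level of each of the 82 genes in shoots (vertical axis) against roots (horizontal axis) of WT plants, both as log2(mean FPKM + 1), under S conditions (left) and NS conditions (right), coloured by class, with the line of equal levels. PR-10 genes lie both in the upper left corner (LotjaGi2g1v0317700) and far below the line (LotjaGi5g1v0119900).

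*Ljasn1-2* and WT were compared in each tissue and condition. None of the members passed limma's adjusted p of 0.05 in the 4 comparisons: 0 of 53 in NS shoots (0.433% of all tested genes were called in either direction), 0 of 58 in NS roots (0.0433% of all), 0 of 53 in S shoots (0.106% of all) and 0 of 55 in S roots (0.0308% of all). At an unadjusted p under 0.05 there were 9 members in NS shoots (5.04% of all tested genes), 7 in NS roots (4.97%), 3 in S shoots (6.66%) and 5 in S roots (2.84%). Same-numbered replicates deviated together in each of these comparisons but that of S shoots. When the number entered the fit as a block, 4 members passed in NS shoots, 5 in NS roots and 4 in S roots. This block was chosen from the same data, so p-values with it may be too small.

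In NS shoots, a small set of abundant shoot members was lower in *Ljasn1-2*. With the block, 4 members fell (0.712% of all tested genes fell in this fit) and 0 rose: the PR-1 gene LotjaGi6g1v0345200, the PR-4 gene LotjaGi1g1v0782200, the GH19 chitinase LotjaGi4g1v0137500 and the PR-10 gene LotjaGi3g1v0089200. Of the 53 tested members, 38 had a negative and 15 a positive log2 fold change, with a median of -0.12 against -0.01 for all tested genes. The genotypes did not overlap for 10 members, against 11% of all tested genes.

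The PR-1 gene LotjaGi6g1v0345200 (chromosome 6, 65788558 to 65789658, minus strand) matches an Arabidopsis PR-1-type protein. It had 98.8, 191 and 240.3 FPKM in *Ljasn1-2* NS shoots, against 971, 419 and 617 FPKM in WT NS shoots. The highest mutant library lay below the lowest WT library. The log2 fold change was -1.92 ± 0.39 (SE, n = 3 each), with an adjusted p of 0.150 in limma and of 0.0433 with the block. Its neighbour LotjaGi6g1v0345300, 5.142 kb from end to end with it, had 21.0, 14.9 and 11.1 FPKM in *Ljasn1-2* and 22.5, 14.3 and 12.9 FPKM in WT NS shoots, and these values overlapped.

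PR-4 proteins carry a barwin domain and bind chitin. LotjaGi1g1v0782200 (chromosome 1, 135526494 to 135527914), a match to PR-4A of tobacco, had 15.3, 16.7 and 18.2 FPKM in *Ljasn1-2* NS shoots, against 100.1, 33.3 and 38.7 FPKM in WT NS shoots. The mutant libraries lay close together and below each WT library. The log2 fold change was -1.54 ± 0.36 (adjusted p = 0.267 in limma, 0.0433 with the block). The highest value was that of WT replicate 1, and without this library the fold change was -1.06 with an adjusted p of 0.0210 in limma. Leaving out any other library of this comparison did not bring the gene past the threshold.

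The chitinase LotjaGi4g1v0137500 (chromosome 4, 20336535 to 20341083), a match to an endochitinase of pea, had 20.0, 32.5 and 32.9 FPKM in *Ljasn1-2* NS shoots, against 83.8, 48.1 and 96.9 FPKM in WT NS shoots. Again the genotypes did not overlap, with a log2 fold change of -1.36 ± 0.29 (limma adjusted p = 0.177, 0.0305 with the block). LotjaGi3g1v0089200, a PR-10 gene that matches MLP-423, had 47.1, 41.6 and 46.1 FPKM in *Ljasn1-2*, against 133, 84.8 and 75.6 FPKM in WT. At -1.06 ± 0.21 on the log2 scale it had the smallest adjusted p of the members with the block, 0.00899, and 0.131 without it.

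A pair of further members of this shoot set stayed above the threshold with the block as well. The thaumatin-like LotjaGi4g1v0417500 (chromosome 4, 79313694 to 79314826) had 96.8, 163 and 242 FPKM in *Ljasn1-2* NS shoots and 611, 253 and 621 FPKM in WT NS shoots, with a log2 fold change of -1.54 ± 0.42 (limma adjusted p = 0.423, 0.0585 with the block). The acidic GH18 chitinase LotjaGi5g1v0294000 (chromosome 5, 61134300 to 61136122) had 15.6, 18.3 and 24.5 FPKM in *Ljasn1-2* and 90.4, 31.6 and 37.6 FPKM in WT, with a log2 fold change of -1.27 ± 0.36 (limma adjusted p = 0.473, 0.103 with the block). The genotypes did not overlap for either gene. The thaumatin-like LotjaGi1g1v0685100 had 154, 152 and 217 FPKM in *Ljasn1-2* and 338, 133 and 228 FPKM in WT NS shoots, and its genotypes overlapped.

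In the PR-1 and GH18 classes the difference of the sums came mostly from 1 gene each. The PR-1 sum was 235 ± 52.8 FPKM in *Ljasn1-2* NS shoots and 738 ± 293 FPKM in WT NS shoots (SD, n = 3 each), a log2 ratio of -1.60 that was -0.26 without LotjaGi6g1v0345200. The GH18 sum was 28.4 ± 5.13 FPKM against 62.8 ± 34.6 FPKM, a log2 ratio of -1.03 that was -0.077 without LotjaGi5g1v0294000. In the PR-10 class the most abundant shoot gene, LotjaGi2g1v0317700, overlapped between the genotypes. The green tissue markers (25 genes for chlorophyll a-b binding proteins and the small subunit of Rubisco, 20 of them at 1 FPKM or more) summed to 40653 to 51613 FPKM in *Ljasn1-2* NS shoots and to 52606 to 58269 FPKM in WT NS shoots, and their part in these differences was not tested.

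**Figure D4:**
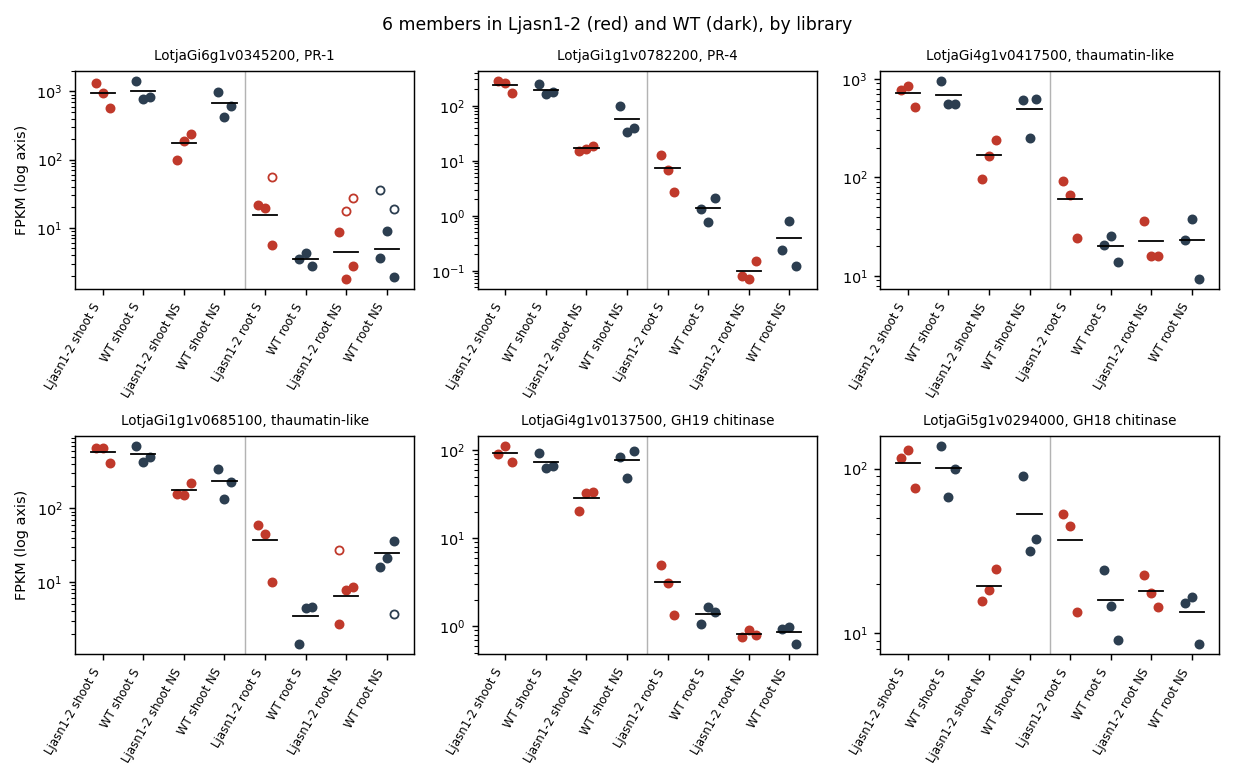
FPKM (log axis) of 6 members in each library of the 8 groups, *Ljasn1-2* in red and WT in dark, with a line at the mean of 3 libraries. Filled circles are the values used and open circles the other possible placements of the decimal point. In NS shoots the 3 *Ljasn1-2* libraries of LotjaGi6g1v0345200, LotjaGi1g1v0782200, LotjaGi4g1v0417500, LotjaGi4g1v0137500 and LotjaGi5g1v0294000 lie below the 3 WT libraries.

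In S shoots the libraries of the genotypes overlapped for each of these 6 genes, the 4 that fell and the pair after them. LotjaGi6g1v0345200 had 1309.6, 956 and 572 FPKM in *Ljasn1-2* S shoots and 1445, 765 and 828 FPKM in WT S shoots, and LotjaGi1g1v0782200 had 287, 257 and 168 FPKM in *Ljasn1-2* and 246, 163 and 179 FPKM in WT. Their log2 fold changes were -0.12 ± 0.31 and 0.26 ± 0.21 (limma adjusted p = 0.991 and 0.939). The genotypes did not overlap for 5 of 53 members, against 11.5% of all tested genes. Whether the difference between the genotypes itself differed between S and NS shoots was tested as an interaction, and 0 of 55 members passed (0.216% of all did), with 8 at an unadjusted p under 0.05 (4.18% of all). The interaction was 1.81 ± 0.47 for LotjaGi1g1v0782200 (adjusted p = 0.357), 1.68 ± 0.38 for LotjaGi4g1v0137500 (adjusted p = 0.185) and 1.81 ± 0.57 for LotjaGi6g1v0345200 (adjusted p = 0.653). LotjaGi4g1v0137500 passed without replicate 2 of the WT NS shoots, in this interaction and in that of genotype with tissue under NS conditions.

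In S roots, the direction was the opposite for part of these shoot genes, at much lower levels. With the block, 4 members rose in *Ljasn1-2* S roots (0.271% of all tested genes did) and 0 fell: LotjaGi1g1v0685100, LotjaGi6g1v0345200, LotjaGi4g1v0417500 and LotjaGi5g1v0294000. The genotypes did not overlap for 7 of 55 members, against 6.76% of all. The thaumatin-like LotjaGi1g1v0685100 (chromosome 1, 125194796 to 125195966), which matches thaumatin-like protein 1a of apple, had 58.6, 44.2 and 9.93 FPKM in *Ljasn1-2* S roots, against 1.44, 4.49 and 4.58 FPKM in WT S roots. Each mutant library was above each WT library, and replicate 3 was the lowest of the mutant. The log2 fold change was 2.87 ± 0.63 (limma adjusted p = 0.631, 0.0362 with the block).

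LotjaGi6g1v0345200 had 21.5, 19.9 and 5.67 FPKM in *Ljasn1-2* S roots, against 3.47, 4.31 and 2.77 FPKM in WT S roots. Again the genotypes did not overlap, and the log2 fold change was 1.71 ± 0.44 (limma adjusted p = 0.845, 0.0118 with the block). The value of *Ljasn1-2* replicate 3 may instead be 56.7 FPKM, which gives 2.75 (adjusted p = 0.197, 0.00343 with the block). Without this library the fold change was 2.27, with a limma adjusted p of 0.0218 and no block. Leaving out any other library of this comparison did not bring the gene past the threshold.

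LotjaGi4g1v0417500 had 92.1, 66.1 and 24.4 FPKM in *Ljasn1-2* S roots and 20.6, 25.4 and 13.8 FPKM in WT S roots. Its lowest mutant value lay between the WT values, and the log2 fold change was 1.41 ± 0.47 (limma adjusted p = 1.00, 0.0139 with the block). LotjaGi5g1v0294000 had 53.2, 44.6 and 13.5 FPKM in *Ljasn1-2* and 24.1, 14.6 and 9.10 FPKM in WT, with a log2 fold change of 1.06 ± 0.53 (limma adjusted p = 1.00, 0.0219 with the block). In both genes replicate 3 was the lowest library of each genotype. LotjaGi1g1v0782200, above the threshold in both fits, had 12.9, 6.71 and 2.69 FPKM in *Ljasn1-2* and 1.34, 0.766 and 2.09 FPKM in WT S roots.

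The green tissue markers fell from replicate 1 to replicate 3 of the *Ljasn1-2* S roots, in the order of these genes. For LotjaGi6g1v0345200 this order holds only with the placement used, since replicate 3 may have 56.7 FPKM. In WT S roots LotjaGi5g1v0294000 fell in the order of the markers and LotjaGi1g1v0685100 ran the other way. LotjaGi6g1v0345200 and LotjaGi4g1v0417500 were highest there in replicate 2. The marker sum was 637, 431 and 219.8 FPKM in *Ljasn1-2* S roots, against 384, 280.0 and 225 FPKM in WT S roots, with 15 of the 25 genes at 1 FPKM or more in both. Replicate 3 was lowest in both, the sums of the genotypes overlapped, and the part of the markers in these differences was not tested. The shoot gene LotjaGi2g1v0317700 stood in *Ljasn1-2* S roots at 0.0208, 0.0259 and 0.0475% of its mean in *Ljasn1-2* S shoots. On the same measure LotjaGi1g1v0685100 stood at 10.1, 7.62 and 1.71%, LotjaGi4g1v0417500 at 12.9, 9.26 and 3.42% and LotjaGi6g1v0345200 at 2.27, 2.10 and 0.599%. The value of 0.599% rests on the placement used and would be higher with the other. The leghemoglobin sum was 7856 to 15018 FPKM in *Ljasn1-2* S roots and 6592 to 14161 FPKM in WT S roots. The genotype effect was also set between S shoots and S roots as an interaction, and 0 of 61 members passed (0.0334% of all did; 7, and 3.17% of all, at an unadjusted p under 0.05), or 1, LotjaGi1g1v0685100, without *Ljasn1-2* S root replicate 3.

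In NS roots mostly other members passed. With the block, 3 rose (2.08% of all tested genes rose in this fit) and 2 fell (2.39% of all), of 58 tested, and the genotypes did not overlap for 8 members, against 10.3% of all. The members that rose were the GH19 chitinases LotjaGi2g1v0287300 and LotjaGi1g1v0556300 and the thaumatin-like LotjaGi4g1v0128800. LotjaGi2g1v0287300, which carries a chitin-binding domain and matches endochitinase A2 of pea, had 5.83, 4.82 and 2.93 FPKM in *Ljasn1-2* NS roots, against 2.90, 1.06 and 1.88 FPKM in WT NS roots. The groups just cleared each other, with a log2 fold change of 0.92 ± 0.28 (limma adjusted p = 0.725, 0.0401 with the block).

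LotjaGi1g1v0556300, a second match to endochitinase A2 and the most abundant GH19 gene in shoots and in *Ljasn1-2* roots, had 294, 257 and 216 FPKM in *Ljasn1-2* NS roots and 143, 216 and 110.5 FPKM in WT NS roots. The lowest mutant library lay just within the range of WT, with a log2 fold change of 0.75 ± 0.27 (limma adjusted p = 0.884, 0.0413 with the block). LotjaGi4g1v0128800 had 17.8, 25.8 and 31.9 FPKM in *Ljasn1-2* and 7.74, 16.8 and 17.4 FPKM in WT NS roots, and 0.84 ± 0.33 on the log2 scale (limma adjusted p = 0.948, 0.00959 with the block). In NS shoots this gene had 2.56, 2.62 and 2.80 FPKM in *Ljasn1-2* and 1.45, 1.59 and 1.86 FPKM in WT, again with no overlap, and it missed the threshold there (limma adjusted p = 0.288, 0.0647 with the block).

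The members that fell were the CSBP match LotjaGi3g1v0322200, with 46.2, 47.5 and 25.7 FPKM in *Ljasn1-2* NS roots and 59.2, 59.1 and 40.9 FPKM in WT NS roots (-0.44 ± 0.27 on the log2 scale, limma adjusted p = 1.00, 0.0429 with the block), and LotjaGi1g1v0685100. The call for this last gene rests on the decimal point. With the placement used, LotjaGi1g1v0685100 had 2.72, 7.93 and 8.64 FPKM in *Ljasn1-2* NS roots, against 16.1, 21.2 and 36.4 FPKM in WT NS roots, a log2 fold change of -1.82 ± 0.42 (limma adjusted p = 0.492, 0.00298 with the block). With the other placement, in which *Ljasn1-2* replicate 1 has 27.2 FPKM and WT replicate 3 has 3.64 FPKM, the fold change was 0.15 (adjusted p = 1.00, 0.859 with the block). For LotjaGi6g1v0345200, *Ljasn1-2* replicates 2 and 3 and WT replicates 1 and 3 of the NS roots each allow a value 10 times as high, and no comparison of the genotypes is drawn there. LotjaGi2g1v0317700 had 2.96, 1.95 and 1.24 FPKM in *Ljasn1-2* NS roots, against 2.04, 1.55 and 1.30 FPKM in WT NS roots as used, or 20.4, 15.5 and 13.0 FPKM, and its log2 fold change of 0.18 became -2.52 (adjusted p = 0.0304) with these values. Of the interactions of genotype with condition in roots, 0 of 60 members passed (0% of all tested genes did), with 5 at an unadjusted p under 0.05 (4.35% of all), and of those of genotype with tissue under NS conditions 0 of 63 (0.29% of all), with 11 at an unadjusted p under 0.05 (5.46% of all).

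S and NS roots differed in many more of these genes than the genotypes did. In WT roots, 4 of 58 tested members were higher under S conditions (11.7% of all tested genes were) and 19 were lower (12.5% of all). With the block these were 8 (23.9% of all) and 29 (24.2% of all). The 19 without the block include LotjaGi1g1v0685100, which the other decimal placement does not call. They leave out LotjaGi2g1v0317700, whose WT NS root values have another, higher placement. In *Ljasn1-2* roots 9 of 58 were higher (12.7% of all) and 22 lower (15.2% of all), and with the block 14 (25.6% of all) and 29 (26.3% of all). Of the calls without the block, 2 higher and 2 lower in *Ljasn1-2* and 2 lower in WT were of genes that passed the filter on low values through 1 condition alone. The block added LotjaGi4g1v0417500 (1.30 ± 0.51, limma adjusted p = 0.0974, 0.00227 with the block) and LotjaGi5g1v0294000 (0.81 ± 0.47, limma adjusted p = 0.252, 0.0281 with the block) to the genes higher in *Ljasn1-2* S roots, and LotjaGi1g1v0530200 (-0.42 ± 0.25, limma adjusted p = 0.258, 0.0118 with the block) to those that were lower. The median log2 fold change of the members was -0.33 in WT and -0.46 in *Ljasn1-2*, against 0.01 for all genes tested in each. The *Ljasn1-2* count of 31 was 19 without *Ljasn1-2* NS root replicate 1, without NS root replicate 2 or without S root replicate 1, and 15 without S root replicate 2. The nodule markers (4 of 4 leghemoglobins) and the endodermal markers (5 of 5 casparian strip genes, 41.2 to 45.5 FPKM in *Ljasn1-2* S roots and 37.6 to 59.3 FPKM in WT S roots, against 87.4 to 183 FPKM in *Ljasn1-2* NS roots and 77.4 to 107 FPKM in WT NS roots) moved with this comparison, and their part in it was not tested.

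PR-10 was the class with the most genes that fell. Of the PR-10 genes tested, 0 were higher and 8 of 16 lower in WT S roots, and 0 higher and 10 of 17 lower in *Ljasn1-2* S roots. In *Ljasn1-2*, 2 of the 10, LotjaGi6g1v0253900 and LotjaGi2g1v0317700, passed the filter on low values through the NS libraries alone. With the placement of the decimal point used, the steepest falls of the class were in a cluster on chromosome 6. There 8 members lie within 170.5 kb (56599518 to 56770039), 7 of PR-10 class and 1, LotjaGi6g1v0254400, whose description says PR-10 and gives no domain. Outside the cluster, LotjaGi2g1v0317700 may have 20.4, 15.5 and 13.0 FPKM in WT NS roots in place of 2.04, 1.55 and 1.30. Against 0.466, 1.27 and 0.199 FPKM in WT S roots, its fall in WT could then be as steep. LotjaGi6g1v0254900, a match to the class-10 PR protein 1 of Medicago, had 53.3, 45.8 and 31.9 FPKM in *Ljasn1-2* S roots, against 525, 557 and 269 FPKM in *Ljasn1-2* NS roots, and 46.1, 67.5 and 27.7 FPKM in WT S roots, against 487, 537 and 321 FPKM in WT NS roots. Replicate 3 was the lowest library of each of these groups. The log2 fold change of S over NS was -3.30 ± 0.33 in *Ljasn1-2* (limma adjusted p = 0.000345) and -3.28 ± 0.35 in WT (limma adjusted p = 0.000534).

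LotjaGi6g1v0254300 was the most abundant of the 82 genes in NS roots. It had 423, 325 and 268 FPKM in *Ljasn1-2* S roots, against 1965, 1807 and 1074 FPKM in *Ljasn1-2* NS roots, and 333, 460.5 and 277 FPKM in WT S roots, against 1763, 1698 and 988 FPKM in WT NS roots. These were decreases of -2.23 ± 0.32 and -2.04 ± 0.32 on the log2 scale in *Ljasn1-2* and in WT. The third class-10 match, LotjaGi6g1v0254700, changed by -2.65 in *Ljasn1-2* and by -2.81 in WT, and LotjaGi6g1v0253800, a match to the potato protein STH-2, which pathogens induce, by -1.62 and -1.64. LotjaGi6g1v0254400 changed by -1.23 in *Ljasn1-2* and by -1.30 in WT. Gene models overlap on the same strand in this cluster: LotjaGi6g1v0254400 lies within the span of LotjaGi6g1v0254300 (3709 bases), LotjaGi6g1v0254900 within that of LotjaGi6g1v0254700 (1210 bases), and LotjaGi6g1v0254700 overlaps LotjaGi6g1v0255000 by 1410 bases. How the authors assigned reads shared by overlapping or near-identical genes is not given in the sources used here, so the split of reads between these copies is uncertain.

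Outside this cluster LotjaGi3g1v0322200, the CSBP match, had 19.1, 18.1 and 14.0 FPKM in *Ljasn1-2* S roots and 19.0, 24.5 and 17.1 FPKM in WT S roots, which is -1.14 and -1.34 on the log2 scale relative to the NS roots given above. LotjaGi3g1v0089200 changed by -1.18 in *Ljasn1-2* and by -1.05 in WT. LotjaGi5g1v0119900, the root match to MLP-423, was at 0.18 ± 0.38 in *Ljasn1-2* and 0.58 ± 0.37 in WT (limma adjusted p = 0.761 and 0.313, and 0.197 and 0.00597 with the block).

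Among the thaumatin-like genes, 3 of 15 tested members were higher and 5 lower in *Ljasn1-2* S roots, and 1 of 17 was higher and 6 lower in WT S roots. In WT, 2 of the 6, LotjaGi4g1v0128700 and LotjaGi5g1v0019000, passed the filter on low values through the NS libraries alone. LotjaGi2g1v0432500 (chromosome 2, 92936159 to 92937755), a match to the osmotin-like OSM34 of Arabidopsis, held most of the class in NS roots. It had 81.6, 109.9 and 66.9 FPKM in *Ljasn1-2* S roots, against 713, 617 and 479.7 FPKM in *Ljasn1-2* NS roots, and 91.7, 97.1 and 73.9 FPKM in WT S roots, against 362, 500.4 and 361 FPKM in WT NS roots. The S and NS libraries lay far apart in both genotypes, with -2.80 ± 0.26 and -2.20 ± 0.21 on the log2 scale (limma adjusted p = 0.000233 and 0.000350). The sum of the class had a log2 ratio of S over NS of -1.15 in WT roots, and of -0.23 without this gene.

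LotjaGi1g1v0685100 was, with the placement used, the only member called in both genotypes whose difference between S and NS roots had opposite signs. It was lower in WT S than in WT NS roots (-2.52 ± 0.39, adjusted p = 0.00338) and higher in *Ljasn1-2* S than in *Ljasn1-2* NS roots (2.17 ± 0.65, adjusted p = 0.0411). With the other placement these were -1.52 (adjusted p = 0.112) and 1.2 (adjusted p = 0.241, 0.0187 with the block). The interaction of genotype and condition was 4.70 ± 0.87 (adjusted p = 0.330, 0.0532 with the block), and 2.72 (adjusted p = 1.00, 0.157 with the block) with the other placement. LotjaGi3g1v0522400, a match to thaumatin-like protein 1 of Arabidopsis, rose a little in both, to 15.5, 16.2 and 13.1 FPKM in *Ljasn1-2* S roots, against 8.07, 8.46 and 6.47 FPKM in *Ljasn1-2* NS roots, and to 14.1, 17.1 and 11.1 FPKM in WT S roots, against 7.19, 7.52 and 6.76 FPKM in WT NS roots.

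The PR-1 class held the steepest increases in WT S roots. LotjaGi4g1v0297700 (chromosome 4, 67169029 to 67169613), a match to PR-1 of Medicago, had 102, 85.3 and 58.4 FPKM in *Ljasn1-2* S roots, against 16.8, 13.8 and 8.11 FPKM in *Ljasn1-2* NS roots, and 64.6, 83.4 and 52.5 FPKM in WT S roots, against 16.4, 18.1 and 11.5 FPKM in WT NS roots. The log2 fold change was 2.59 ± 0.30 in *Ljasn1-2* and 2.05 ± 0.23 in WT (limma adjusted p = 0.000732 and 0.000736). The basic PR-1 gene LotjaGi6g1v0345300 had 209, 148 and 70.8 FPKM in *Ljasn1-2* S roots, against 28.8, 31.8 and 17.7 FPKM in *Ljasn1-2* NS roots, and 108, 95.3 and 75.0 FPKM in WT S roots, against 35.7, 33.7 and 19.8 FPKM in WT NS roots. It rose by 2.31 ± 0.40 and 1.64 ± 0.26 on the log2 scale.

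Not all PR-1 genes of the root went that way. LotjaGi4g1v0297800, which stands beside LotjaGi4g1v0297700 within 17.19 kb, had 75.3, 75.3 and 62.9 FPKM in *Ljasn1-2* S roots, against 143, 136 and 113 FPKM in *Ljasn1-2* NS roots, and 80.1, 71.8 and 56.4 FPKM in WT S roots, against 136, 131 and 97.5 FPKM in WT NS roots. It changed by -0.86 and by -0.80 (limma adjusted p = 0.0113 and 0.0295), so that in roots these neighbours moved in opposite directions. For LotjaGi6g1v0345200 the sign and the call of S over NS in roots depend on the decimal point, and no comparison is drawn.

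Of the chitinases, the CHIT5 match LotjaGi5g1v0054800 (chromosome 5, 9317459 to 9323095) rose in nodulated roots. It had 51.3, 49.3 and 37.1 FPKM in *Ljasn1-2* S roots, against 16.5, 17.1 and 12.9 FPKM in *Ljasn1-2* NS roots, and 45.5, 52.7 and 29.2 FPKM in WT S roots, against 17.9, 17.1 and 14.1 FPKM in WT NS roots. The groups were well apart, with 1.50 ± 0.19 and 1.29 ± 0.23 on the log2 scale (limma adjusted p = 0.00118 and 0.00631). Another GH18 gene, LotjaGi4g1v0284200 (the CHIT5b match), had 14.8, 15.8 and 16.4 FPKM in *Ljasn1-2* S roots and 14.6, 18.2 and 15.4 FPKM in WT S roots, overlapping the 20.1, 17.9 and 8.61 FPKM of *Ljasn1-2* NS roots, while the WT NS roots had 21.6, 19.0 and 17.3 FPKM. Of the 7 GH19 genes tested, 1 was higher and 3 lower in *Ljasn1-2* S roots, and 0 higher and 3 lower in WT S roots. The higher one, LotjaGi4g1v0137500, passed the filter on low values through the S libraries alone. The PR-4 gene LotjaGi1g1v0782200 was tested in *Ljasn1-2* roots only, with 12.9, 6.71 and 2.69 FPKM under S and 0.0816, 0.0712 and 0.150 FPKM under NS conditions, so that it passed the filter on low values through the S libraries alone, and no test of it is given. In WT it had 1.34, 0.766 and 2.09 FPKM under S and 0.240, 0.801 and 0.12 FPKM under NS conditions and did not pass the filter.

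**Figure D5:**
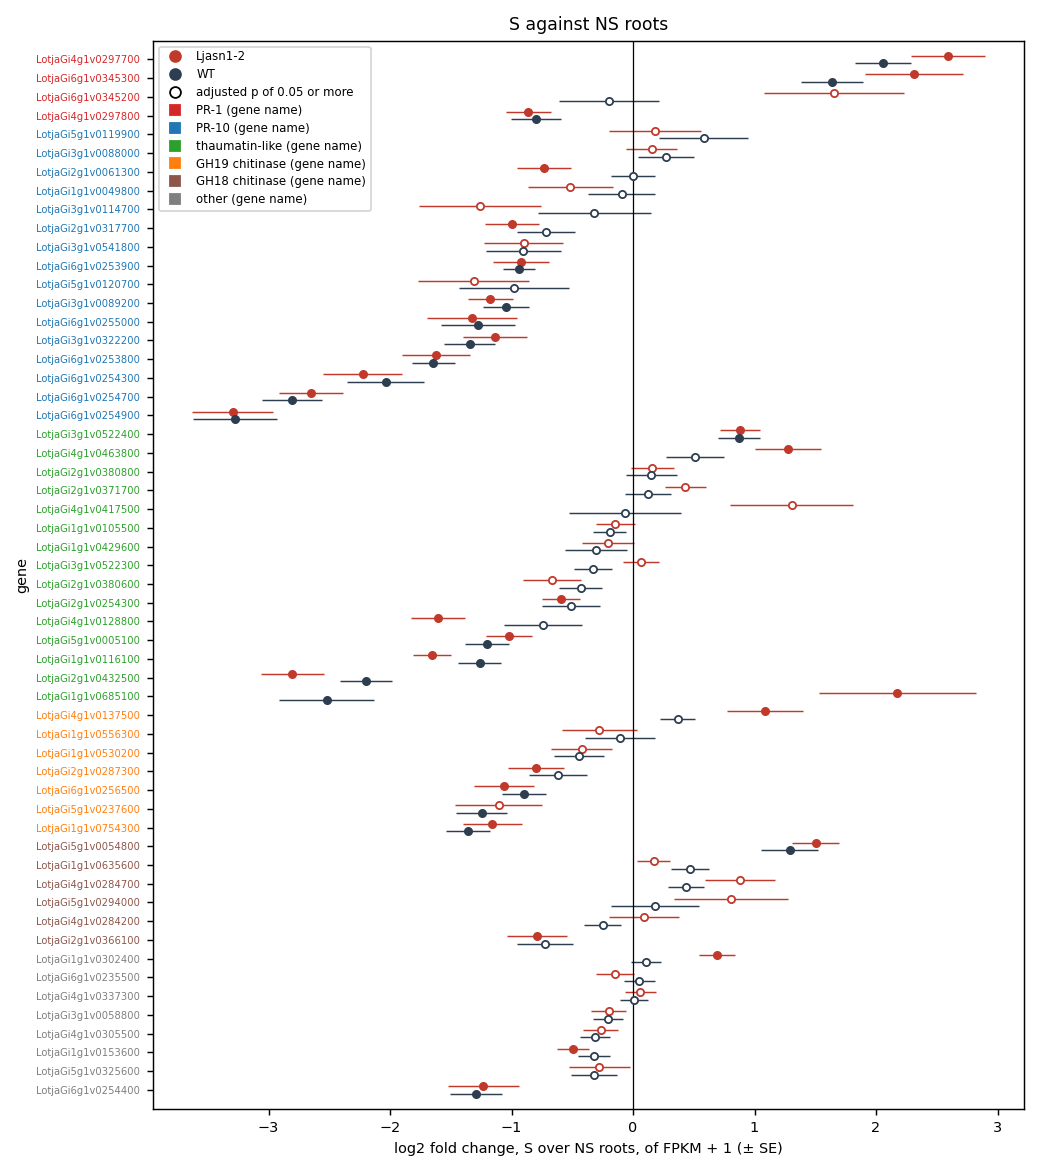
Log2 fold change of S over NS roots (horizontal axis, on the scale of FPKM + 1, ± SE) in *Ljasn1-2* (red) and WT (dark) for the 56 members tested in both, with gene names coloured by class and open symbols at an adjusted p of 0.05 or more. PR-10 genes lie mostly left of 0, LotjaGi6g1v0254900 at -3.30 in *Ljasn1-2* and -3.28 in WT. LotjaGi4g1v0297700 and LotjaGi6g1v0345300 lie right of it, and LotjaGi1g1v0685100 lies on opposite sides in the genotypes. The positions of LotjaGi1g1v0685100 and LotjaGi6g1v0345200, and that of LotjaGi2g1v0317700 in WT, depend on the decimal point.

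In shoots the largest called increase under S conditions was that of the PR-4 gene in both genotypes, and in *Ljasn1-2* those next in size were of genes described above for NS shoots. In *Ljasn1-2* shoots, 12 of 54 tested members were higher under S conditions (6.05% of all tested genes were) and 10 were lower (5.81% of all). In WT shoots, 3 of 54 were higher (3.44% of all) and 4 lower (2.75% of all), and with the block 11 (13.6% of all) and 9 (9.5% of all). Of the calls without the block, 1 lower in WT was of a gene that passed the filter on low values through the NS libraries alone. The WT count of 7 was 12 without WT NS shoot replicate 1, 4 without WT NS shoot replicate 2 or without WT S shoot replicate 2, and 2 without WT S shoot replicate 3.

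From the values given above for the shoots, LotjaGi1g1v0782200 (PR-4) was higher under S than under NS conditions by 3.71 ± 0.19 on the log2 scale in *Ljasn1-2* (limma adjusted p = 6.2e-06) and by 1.91 ± 0.37 in WT (limma adjusted p = 0.0222). In *Ljasn1-2* shoots the PR-1 gene LotjaGi6g1v0345200 followed with 2.43 ± 0.36, the GH18 chitinase LotjaGi5g1v0294000 with 2.40 ± 0.22, and the thaumatin-like LotjaGi4g1v0417500 with 2.15 ± 0.31 (limma adjusted p = 0.00245, 0.000190 and 0.00220). In WT shoots these were 0.62 ± 0.34, 1.02 ± 0.39 and 0.54 ± 0.37 (limma adjusted p = 0.384, 0.193 and 0.502; with the block 0.00336, 0.00153 and 0.10). The interaction given above tests this same difference between the genotypes, and none of these genes passed it in the fit without a block.

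LotjaGi1g1v0685100 had 661, 662 and 414 FPKM in *Ljasn1-2* S shoots and 702, 424 and 495 FPKM in WT S shoots. Set against the NS shoots above, it was higher by 1.71 ± 0.22 in *Ljasn1-2* (limma adjusted p = 0.00124) and by 1.28 ± 0.33 in WT (limma adjusted p = 0.0608, 0.000370 with the block). The CHIT5 match LotjaGi5g1v0054800 rose in shoots too, by 0.86 ± 0.15 in *Ljasn1-2* and 0.74 ± 0.14 in WT, at levels of 3.17, 3.70 and 2.46 FPKM in *Ljasn1-2* S shoots and 3.35, 2.66 and 3.51 FPKM in WT S shoots.

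In the PR-10 cluster on chromosome 6, 5 of the 6 genes tested in *Ljasn1-2* shoots and 3 of the 6 tested in WT shoots were lower under S conditions, and 0 were higher. Of all tested genes, 5.81% were lower in *Ljasn1-2* shoots and 2.75% in WT shoots. LotjaGi6g1v0253800, 1 of the 3 in WT, passed the filter on low values through the NS libraries alone. LotjaGi6g1v0254900 had 1.73, 1.09 and 1.33 FPKM in *Ljasn1-2* S shoots, against 6.45, 4.71 and 5.41 FPKM in *Ljasn1-2* NS shoots, and 1.55, 1.27 and 1.57 FPKM in WT S shoots, against 9.11, 5.98 and 7.50 FPKM in WT NS shoots. The fall was -1.45 ± 0.14 and -1.78 ± 0.15 on the log2 scale (limma adjusted p = 0.000305 and 0.000770). The more abundant LotjaGi6g1v0254300 fell in *Ljasn1-2* (-0.996 ± 0.19, limma adjusted p = 0.00863) and was at -0.70 ± 0.26 in WT (limma adjusted p = 0.177, 0.00344 with the block). The thaumatin-like LotjaGi2g1v0380800 had 4.34, 3.51 and 3.69 FPKM in *Ljasn1-2* S shoots, against 9.74, 11.4 and 10.2 FPKM in *Ljasn1-2* NS shoots, and 4.77, 3.05 and 3.92 FPKM in WT S shoots, against 11.0, 11.3 and 7.49 FPKM in WT NS shoots. In roots, where it was more abundant (21.4, 32.3 and 33.8 FPKM in WT S roots), the conditions overlapped in both genotypes (0.16 ± 0.17 in *Ljasn1-2* and 0.15 ± 0.21 in WT on the log2 scale, limma adjusted p = 0.542 and 0.664). LotjaGi2g1v0254300, which matches a thaumatin-like protein of Cryptomeria, rose in S shoots of both genotypes (0.69 in *Ljasn1-2* and 0.79 in WT).

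Whether S and NS differed by the same amount in roots and in shoots was tested as an interaction in each genotype. In *Ljasn1-2*, 7 of 62 members had a more positive difference in roots (11.1% of all tested genes did) and 17 a more negative one (13.6% of all). In WT, 4 of 62 were more positive (8.62% of all) and 15 more negative (10.5% of all), together 19, or 11 without WT NS shoot replicate 2. The PR-10 genes gave 0 and 10 of 19 in *Ljasn1-2*, and 0 and 6 of 18 in WT. LotjaGi4g1v0297700 had the most positive interaction among the named genes in both, 2.09 ± 0.41 in *Ljasn1-2* and 1.72 ± 0.27 in WT (limma adjusted p = 0.00268 and 0.000613). Some of the PR-10 genes counted were near 0 FPKM in 1 tissue. LotjaGi3g1v0322200 had almost no reads in WT shoots, so its WT interaction of -1.38 mostly restates its change in WT roots (-1.34). For LotjaGi2g1v0061200 and LotjaGi2g1v0317700, counted in *Ljasn1-2*, the root levels were near the floor.

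The members also differed in how they lie in the genome. Of the 82 genes, 39 stood in 15 clusters in which neighbours are less than 100 kb apart, and 17 of these in 4 clusters of 3 or more. In the thaumatin-like cluster of 3 on chromosome 1 (18.16 kb), LotjaGi1g1v0685100 reached 702, 424 and 495 FPKM in WT S shoots, whereas LotjaGi1g1v0685000 had 1.07, 0.205 and 0.832 FPKM and LotjaGi1g1v0685200 had 0, 0.0886 and 0 FPKM there. In the PR-1 pair on chromosome 6, LotjaGi6g1v0345200 was a shoot gene and LotjaGi6g1v0345300 a root gene, as given above. The pathogenesis-related homeodomain gene LotjaGi6g1v0235500, which encodes a transcription factor and not a secreted protein, had 4.17 to 6.26 FPKM over all 24 libraries.

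Other defence genes of the table were counted from lists of words in the descriptions, members left out. None of the tested genes of these lists passed limma's adjusted p between *Ljasn1-2* and WT in any of the 4 comparisons. The lists held 59 PR-2 glucanases, which cut the beta-1,3-glucan of fungal walls, 28 PR-6 proteinase inhibitors, 2 PR-12 defensins, 48 PR-14 lipid transfer proteins, 18 regulators of salicylic acid signalling and 15 LysM receptors. With the block, where it applies, 2 of 39 tested PR-2 genes rose in *Ljasn1-2* S roots (0.271% of all tested genes did), and 1 of 16 PR-14 genes and 1 of 11 salicylic acid regulators fell in *Ljasn1-2* NS shoots (0.712% of all did). In *Ljasn1-2* NS roots with the block, 2 of 41 PR-2 genes rose and 1 fell, 2 of 16 PR-6 genes rose and 3 fell, 2 of 23 PR-14 genes rose and 1 of 11 salicylic acid regulators fell, where 2.08% of all tested genes rose and 2.39% fell.

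Between S and NS roots these lists were split. In *Ljasn1-2* roots 11 of 40 tested PR-2 genes were higher and 11 lower under S conditions, and in WT roots 7 of 41 were higher and 12 lower. Of the 26 PR-14 genes tested, 9 were higher and 2 lower in *Ljasn1-2* and 9 were higher and 1 lower in WT. Of the PR-6 genes, 1 was higher and 6 lower of 16 in *Ljasn1-2*, and 1 higher and 5 lower of 15 in WT. The salicylic acid regulators gave 1 higher and 4 lower of 11 in *Ljasn1-2* and 0 higher and 3 lower of 11 in WT, and the LysM receptors 3 higher and 4 lower of 10 in *Ljasn1-2* and 3 higher and 3 lower of 11 in WT. Read against the 12.7% higher and 15.2% lower of all genes in *Ljasn1-2* roots, and 11.7% and 12.5% in WT roots, these are descriptions of small lists, with no test of a list. Between S and NS shoots, of the 59 PR-2 genes listed, 2 were called higher and 5 lower in *Ljasn1-2*, and 1 higher and 0 lower in WT. Of all tested genes, 6.05% were higher and 5.81% lower in *Ljasn1-2* shoots, and 3.44% and 2.75% in WT shoots.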

How the data were processed

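RNA-seq libraries from polyadenylated RNA (strand-specific dUTP protocol, Novogene) were made from 24 pools of plants, 3 for each of 8 groups. The authors deposited 1 table of FPKM values, with gene lengths, positions and descriptions on the LjG1.1 assembly; its unit is recorded as other, because values of 1 or more had lost their decimal point. The submitters' processing notes name fastp, featureCounts 1.5.0-p3 and DESeq2 1.20.0; the aligner and the scaling of the FPKM values are not given in the sources used here.

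Of 725832 values, 384363 (53.0%) had lost the point. In each library the intact values times gene length are whole multiples of 1 read, and each damaged value was set to the FPKM of a whole number of reads with the same digits (largest relative distance 5.4e-15). Where several powers of 10 remained, the spread between replicates and the rank of each gene, since rows are sorted by summed value, decided. For 47 genes, 3 of them members, another placement was nearly as likely, and results were recomputed with it. On a simulated table, 18 of 384211 such values, in 8 genes, were restored wrongly. Depth on genes was 37.5 to 66.8 M reads per library.

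Limma 3.58.1 (R 4.3.3) was run on log2(FPKM + 1) for each comparison of 2 groups over its 6 libraries, and interactions over 12, with an intensity trend, for genes at 1 FPKM or more in 3 or more libraries of the fit. Tests were two-sided and adjusted by Benjamini and Hochberg over all genes tested, with a threshold of 0.05. Fold changes on this scale understate those of genes near 1 FPKM. The plan assumed intact FPKM values, and limma was kept; no count model is a main result. Replicate numbers paired the libraries where each same-numbered pair had a correlation of deviations over 0.1: *Ljasn1-2* against WT in S roots (0.529 to 0.822), NS shoots (0.414 to 0.660) and NS roots (0.585 to 0.832), and S against NS in WT roots (0.532 to 0.726), *Ljasn1-2* roots (0.379 to 0.750) and WT shoots (0.380 to 0.678). The labels give the numbers without saying what they share. The block was thus chosen from the same data that were then tested, and p-values with the block may be too small.

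Members and lists were chosen with earlier results of these data known. The 29 named members are the most abundant of each class, the largest changes among those that passed, with no overlap of the groups, in the comparisons of genotype, of condition in WT and of tissue in WT, and the smallest adjusted p of the interactions with genotype; others are said to be chosen after their values were seen. Alternatives were a pseudocount of 0.1, no filter, quantile normalization, 1 fit of all 24 libraries, the replicate block, voom on the recovered reads, leaving out each library, and, added after seeing the data, the other decimal placements. Python 3.11.15, numpy 2.4.6, pandas 2.3.3 and matplotlib 3.10.9 were used for summaries and figures.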

Additional observations from a re-analysis of the deposited data

Results flagged for a closer look

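The difference between S and NS conditions differed between roots and shoots, by limma's interaction test, for 24 members in *Ljasn1-2* and 19 members in WT. Values below are the log2 fold change of S over NS in roots minus that in shoots. In *Ljasn1-2* the named members below 0 were LotjaGi3g1v0089200 (-2.03), LotjaGi2g1v0432500 (-1.92), LotjaGi6g1v0254900 (-1.84), LotjaGi6g1v0254700 (-1.68), LotjaGi2g1v0317700 (-1.56), LotjaGi2g1v0254300 (-1.28), LotjaGi6g1v0254300 (-1.23), LotjaGi3g1v0322200 (-1.16), LotjaGi4g1v0128800 (-1.04) and LotjaGi2g1v0061200 (-0.84). Those above 0 were LotjaGi3g1v0522400 (0.81), LotjaGi2g1v0380800 (1.40), LotjaGi6g1v0345300 (1.57) and LotjaGi4g1v0297700 (2.09). LotjaGi3g1v0322200 was near the floor in shoots, and LotjaGi2g1v0317700 and LotjaGi2g1v0061200 were near it in roots. Their values therefore say little about a change in that tissue.

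In WT the named members below 0 were LotjaGi1g1v0685100 (-3.80, or -2.80 with the other decimal placement), LotjaGi6g1v0254700 (-1.53), LotjaGi6g1v0254900 (-1.50), LotjaGi3g1v0322200 (-1.38), LotjaGi6g1v0254300 (-1.34), LotjaGi2g1v0254300 (-1.31) and LotjaGi3g1v0089200 (-0.96). Those above 0 were LotjaGi3g1v0522400 (0.70), LotjaGi2g1v0380800 (1.30) and LotjaGi4g1v0297700 (1.72). The same limit holds for LotjaGi3g1v0322200 in WT shoots. For LotjaGi3g1v0089200, a PR-10 gene, S exceeded NS in *Ljasn1-2* shoots (0.85) and was below it in *Ljasn1-2* roots (-1.18).

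In roots, LotjaGi1g1v0685100 was higher in each *Ljasn1-2* library than in each WT library under S conditions and lower under NS conditions, with a difference of 4.70 between the log2 fold changes (S minus NS). This difference missed the threshold (limma adjusted p = 0.330), and with the other decimal placement it was 2.72 and the NS libraries overlapped.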

How the results depend on the processing

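Counts of members called depended most on the replicate block. With the replicate block the count for *Ljasn1-2* against WT was 4 in S roots, 4 in NS shoots and 5 in NS roots in place of 0, that for S against NS was 37 in place of 23 in WT roots and 20 in place of 7 in WT shoots, and that for the interaction of genotype and condition in shoots, where S libraries are not paired, was 1 (LotjaGi1g1v0782200, limma adjusted p = 0.0407) in place of 0. One fit of all 24 libraries called 1 member in S roots, 2 in NS shoots and 1 in NS roots between the genotypes. Quantile normalization called 1 in NS shoots between the genotypes and 13 between S and NS in WT shoots, where no filter left 4. Voom on the recovered reads gave 10 in place of 19 for the interaction of condition and tissue in WT. For these settings other than the block no share of all tested genes is given, so the counts show only how far they moved. The other decimal placement of LotjaGi2g1v0317700 called 1 member in NS roots, and that of LotjaGi1g1v0685100 turned its fold change between the genotypes in NS roots to 0.15. Without the most abundant gene of the class, the log2 ratio of summed FPKM was -0.26 for PR-1 and -0.077 for GH18 (*Ljasn1-2* over WT in NS shoots), and -0.23 for thaumatin-like genes and -0.16 in place of -1.07 for genes without a class domain (S over NS in WT roots).

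When each library was left out in turn, the count was 0 in S shoots, 0 to 1 in S roots, 0 to 1 in NS shoots and 0 in NS roots for *Ljasn1-2* against WT. For S against NS it was 20 to 26 in WT roots, 15 to 31 in *Ljasn1-2* roots, 2 to 12 in WT shoots and 16 to 29 in *Ljasn1-2* shoots. For shoots against roots it was 38 to 41 (WT S), 30 to 37 (WT NS), 36 to 41 (*Ljasn1-2* S) and 29 to 36 (*Ljasn1-2* NS). For the interactions it was 0 to 1 (genotype and condition in shoots), 0 (in roots), 0 to 1 (genotype and tissue, S and NS), 18 to 26 (condition and tissue, *Ljasn1-2*) and 11 to 25 (WT). With 3 libraries a group, leaving 1 out leaves fits with 5 libraries. For each library left out, 179 of 195 values of named members kept their direction and side of the threshold, 14 became weaker and 2 stronger. The same-numbered libraries of S shoots (correlation -0.01 to 0.41) and of *Ljasn1-2* S and NS shoots (-0.03 to 0.45) were not treated as pairs, and there the numbers may be only names. The 3 libraries per group limit each comparison, and the uncertain decimal points limit the root comparisons of 3 genes.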
